A study of Mus musculus with 9 samples.

Results

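A set of 41 genes stood higher in the proliferative hub than in both other regions of mouse tail epidermis. The hub is the ring of skin around a healing wound in which basal cells divide. These hub peak genes were chosen by their own levels: the hub mean had to lie at least 0.4 log2 units above both the leading edge mean and the control mean, and the lowest hub array above the highest array of the other regions. Of 17097 genes measured, 44 met this rule, and 3 serine protease inhibitors were then left out by name because 4 gene families (names starting with Serpin, Mmp, Krt or Nduf) were set aside. The 41 genes are 0.24% of those measured, and under the same rule 755 genes peaked at the leading edge and 454 in control skin.

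The study profiled basal cells of the tail interfollicular epidermis of CD1 mice at day 4 after a wound of 3 mm in diameter, with 3 arrays for each of 3 regions. Leading edge cells came from a punch of 4 mm around the wound and were sorted as positive for α5-integrin. Hub cells are labelled α5-integrin negative. The methods describe a 6 mm punch for the hub. The supplement, however, shows the α5-integrin sort only for the 4 mm punch and control skin, so the punch of these hub cells is not certain. Control cells were taken from a distant stretch of tail skin of such wounded mice, and no α5-integrin gate is named for them. All 9 samples were CD34 negative and α6-integrin positive and held 300 sorted cells each, and their RNA was amplified before hybridisation. The methods name a pool of 5 mice for duplicate samples at each time point. Whether these triplicate samples were pooled likewise is not stated there. No genetic modification and no drug is named for any group, and neither age nor sex is given for the animals of these samples.

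When skin is cut, the basal keratinocytes at the rim stop dividing and crawl under the scab, while the cells behind them divide and supply new tissue. A dividing basal cell licenses and copies its DNA, and to grow it makes ribosomes, which begins with transcription of ribosomal RNA by RNA polymerase I in the nucleolus. Some of its daughters leave the basement membrane and exchange their junctions for those of the upper layers, in which desmocollins and desmogleins hold cells together.

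The sort itself could be read in the arrays. Itga5, the α5-integrin gene, lay between 9.06 and 9.17 log2 units at the leading edge, between 6.46 and 7.47 in the hub and between 6.23 and 6.50 in control, and Cd34 did not exceed 4.95 on any array. The 10 basal keratinocyte markers measured were all above background and averaged 11.90 to 12.06 per array. Mki67, a marker of cycling cells, did not set the region labelled proliferative apart: it reached 10.38 to 10.57 in the hub, 10.34 to 10.55 at the leading edge and 10.32 to 10.44 in control, with an adjusted p of 0.855 for hub against leading edge by limma. Arrays within a region correlated at 0.988 to 0.995 and arrays of different regions at 0.964 to 0.986. The signal difference between the 3′ and 5′ ends of the actin control was -0.39 to -0.28 at the leading edge, -0.49 to -0.46 in the hub and -0.51 to -0.45 in control (log2), and its part in the hub differences was not tested.

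The hub peaks were small. The lead, which is the smaller of the hub mean minus the leading edge mean and the hub mean minus the control mean, ran from 0.40 to 0.93 log2 units with a median of 0.47. It was under 0.5 in 25 of the 41 genes and reached 1 in none. The gap between the lowest hub array and the highest other array ran from 0.02 to 0.49, and 16 genes had a gap under 0.1. These values describe the choice, and no test of them was made because they selected the genes. Over all genes, 2.33% had every hub array above every other array, and 29.6% had their highest mean in the hub. The threshold cut through a continuum. Triap1, Gm46390 and Cdt1 stood just inside it with leads of 0.40 each, and Trub2, Foxn1 and Slc7a4 just outside with 0.40, 0.40 and 0.39, the leads of Trub2 and Foxn1 reaching 0.40 by rounding only. Because whole populations were profiled, more RNA per cell and more cells with the RNA cannot be told apart for any of these genes.

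**Figure D1:**
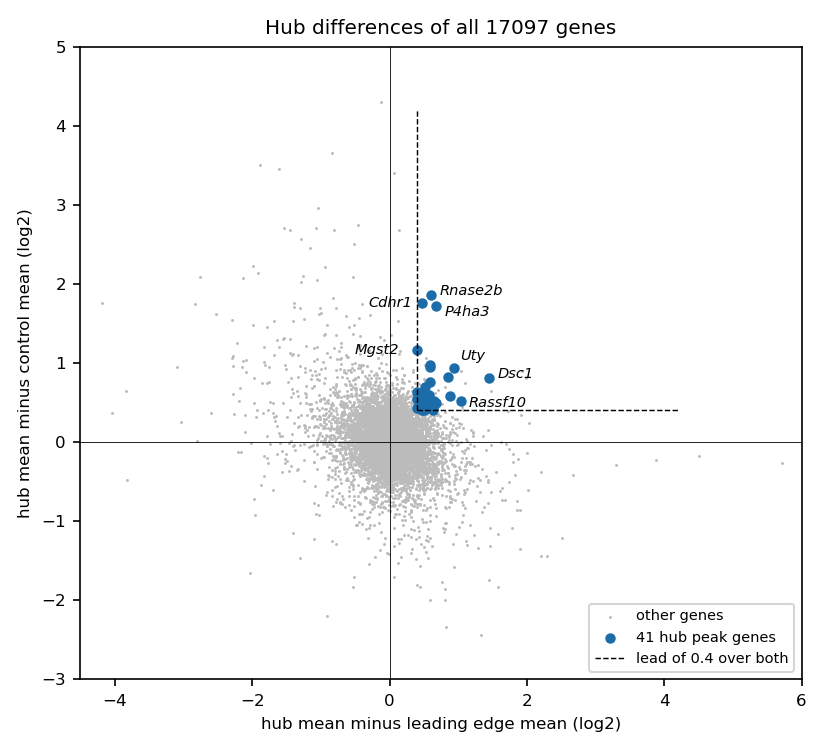
Hub mean minus leading edge mean (x axis, log2) against hub mean minus control mean (y axis, log2) for all 17097 genes, each a point, with the 41 hub peak genes in blue and the lead of 0.4 as a broken line. The blue genes sit close to the corner, and Dsc1, Rnase2b, Cdhr1 and P4ha3 reach farthest from it along one axis or the other. Grey points past both lines are genes whose arrays overlapped or that were set aside by name.

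Among the members, 6 act in DNA replication, in the supply of its building blocks or in repair. They are Cdt1, Mcm6, Dctd, Cdadc1, Ung and Mlh3, with leads between 0.40 and 0.47. Cdt1 encodes the licensing factor that loads the MCM helicase onto replication origins. It read 10.27, 10.28 and 10.36 in the hub, against 10.02, 9.78 and 9.90 at the leading edge and 9.86, 9.66 and 9.77 in control. The 3 hub arrays were within 0.1 of each other and 0.26 above the next array, and Cdt1 had the highest hub mean of all members, at 10.30 ± 0.05 (SD, n = 3).

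Mcm6, a subunit of the helicase that Cdt1 loads, read 9.19, 9.42 and 8.98 on the hub arrays, 8.71, 8.63 and 8.90 on those of the leading edge and 8.76, 8.87 and 8.17 on those of control. Its hub arrays were the top of the 9 by a gap of 0.09 only, and the third control array was the lowest of the 9. Ung, the glycosylase that removes uracil from DNA, read 9.79, 9.93 and 9.78 in the hub, against 9.56, 9.36 and 9.28 at the leading edge and 9.47, 9.63 and 9.12 in control. Its hub arrays were tight and all lay above the other 6. Dctd, which makes the precursor of thymidine nucleotides, ranged from 7.65 to 7.99 in the hub and did not exceed 7.57 elsewhere. Cdadc1, a deaminase of cytidine nucleotides, ranged from 7.93 to 8.14 in the hub and reached 7.75 at the leading edge. None of its further probe sets had every hub array above all others. The brightest of them was highest in control, at 7.59, 7.69 and 7.61 against 7.38, 7.48 and 7.44 in the hub. Mlh3, a mismatch repair protein, was the dimmest of the group, at 6.25 to 6.86 in the hub and at most 6.12 elsewhere.

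Promoters of the members were searched because E2F factors, the regulators of S phase, have a known recognition sequence. RefSeq windows of 300 bases (GRCm38.p6, 250 bases before to 50 after a start site) were held for 36 of the 41 genes, in 46 windows. The letters TTTCCCGC or TTTGGCGC, a search chosen after the levels were seen and run on both strands, occurred in 3 of these windows (6.52%) and in 1.56% of all 32851 windows. The 3 windows belong to Cdt1, Mcm6 and Acbd6, and only they are printed, 5′ to 3′ on the strand of the gene with the matched letters in capitals. The windows of the other replication and repair members, Dctd, Cdadc1, Ung and Mlh3, held no match. The Cdt1 window is chr8:122567765-122568064 on the plus strand, with its match beginning at position 33, the start site being position 1. The Mcm6 window is chr1:128359656-128359955 on the minus strand, with matches beginning 110 and 47 bases before the start site. The Acbd6 window is chr1:155557870-155558169 on the plus strand, with its match beginning 42 bases before the start site.
Cdt1: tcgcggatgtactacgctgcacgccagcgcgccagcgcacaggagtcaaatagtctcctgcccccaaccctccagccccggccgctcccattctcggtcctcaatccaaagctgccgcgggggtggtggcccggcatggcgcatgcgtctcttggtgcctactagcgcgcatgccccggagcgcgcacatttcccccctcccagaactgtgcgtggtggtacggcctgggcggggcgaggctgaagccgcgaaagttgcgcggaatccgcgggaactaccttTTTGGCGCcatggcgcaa
Mcm6: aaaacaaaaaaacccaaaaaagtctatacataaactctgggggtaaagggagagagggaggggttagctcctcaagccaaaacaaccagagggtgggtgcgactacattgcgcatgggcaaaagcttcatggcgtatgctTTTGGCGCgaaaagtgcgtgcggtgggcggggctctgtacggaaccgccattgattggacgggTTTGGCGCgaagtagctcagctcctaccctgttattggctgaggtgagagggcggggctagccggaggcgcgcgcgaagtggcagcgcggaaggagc
Acbd6: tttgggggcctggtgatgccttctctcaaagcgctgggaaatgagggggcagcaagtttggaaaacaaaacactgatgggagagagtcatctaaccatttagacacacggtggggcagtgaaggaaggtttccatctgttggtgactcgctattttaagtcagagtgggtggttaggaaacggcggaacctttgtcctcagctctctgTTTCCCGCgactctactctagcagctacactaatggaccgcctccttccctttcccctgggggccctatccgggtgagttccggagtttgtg
A match is a run of letters and not a measured binding site. CCAAT occurred in 34.8% of member windows and 37.4% of all windows, the E-box CACGTG in 6.52% and 7.15%, and TATAAA in 21.7% and 13.6%. The median GC content was 52.8% in member windows and 52.7% in all. The median count of the letters CG, which TTTCCCGC and TTTGGCGC contain, was 13 in member windows and 7 in all. Its part in the share of E2F matches was not tested.

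The wider replication machinery was compared as a list. Of 59 measured genes of a DNA replication and S phase list, 31 had their highest mean in the hub (52.5%, against 29.6% of all genes) and 3 had every hub array above every other array (against 2.33% of all genes), Mcm6, Cdt1 and Prim1. In the limma fit across all genes 5.23% were higher and 5.39% lower in the hub than at the leading edge, and the list gave 2 higher and 2 lower, with a median difference of 0.06 against 0.01 over all genes. Cdt1 and E2f2 were the higher genes (0.40 and 0.90), and E2f7 and Rrm2 the lower (-1.01 and -0.35), so the count includes a gene chosen on this contrast. Against control, where 4.16% of all genes were higher and 3.12% lower (711 and 533 genes, or 546 and 616 after each array was centred on its median), 17 of the 59 were higher and 0 lower by limma (0 at an unadjusted p under 0.05), with a median of 0.30 against 0.03. Cdt1 is one of the 17 and was chosen on this contrast, as was Mcm6, which is not among them. The 17 included Mcm3, Mcm4, Mcm5 and Mcm10 (0.46, 0.51, 0.56 and 0.76). That count fell to 8, 11 and 6 when the first, the second or the third hub array was left out, to 9 without the first control array and to 11 without the third. At the leading edge 17 of the 59 exceeded control and 1 lay below it, where 11.9% of all genes were higher and 10.8% lower, the 17 becoming 10 without the first leading edge array and 11 without the first control array. Mcm2 gave 9.90, 10.00 and 9.91 on the hub arrays, 9.92, 9.55 and 9.76 on those of the leading edge and 9.45, 9.78 and 9.26 on those of control, so its hub and leading edge arrays overlapped. Genes of mitosis had their highest mean in the hub in 6 of 47 (12.8%, against 29.6% of all genes): 0 were higher (0 also at an unadjusted p under 0.05) and 4 lower in the hub than at the leading edge by limma. Against control 7 of the 47 were higher in the hub and 0 lower (1 at an unadjusted p under 0.05), and at the leading edge 22 were higher and 1 lower. Top2a ranged from 8.72 to 8.83 in the hub and from 8.81 to 9.20 at the leading edge. Among 33 DNA repair genes, Ung included, 11 had their highest mean in the hub (33.3%), a share near that of all genes.

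Ribosome production and RNA maturation gave 4 members: Polr1b, Wdr46, Gemin2 and Ice2. Polr1b, a large subunit of RNA polymerase I, read 8.64, 8.36 and 8.36 in the hub, against 7.72, 7.98 and 7.84 at the leading edge and 8.20, 7.97 and 7.90 in control. The first control array came closest to the hub, at a distance of 0.16. Wdr46, a nucleolar scaffold of small ribosomal subunit assembly, read 9.31, 9.66 and 9.74 on the hub arrays, 9.02, 8.89 and 9.14 on those of the leading edge and 8.89, 9.19 and 9.03 on those of control. The hub arrays were all higher, the first by little. Gemin2, which helps to assemble the spliceosome's small nuclear particles, ranged from 7.52 to 7.70 in the hub against at most 7.25 elsewhere. Ice2, part of the complex that transcribes small nuclear RNA genes, read 6.50, 6.85 and 6.89 on the hub arrays, 6.17, 6.19 and 6.17 on those of the leading edge and 6.04, 6.38 and 6.05 on those of control. The second control array came closest to the hub, and all 9 values were below the 95th percentile of the background probe sets (7.40).

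Ribosome biogenesis genes as a list leaned the same way with smaller steps. Of 77 measured, 54 had their highest mean in the hub (70.1%, against 29.6% of all genes). In 20 every hub array was above every other array (against 2.33% of all genes), Polr1b being the one that also met the lead of 0.4. In the hub 9 of the 77 were higher than at the leading edge and 0 lower by limma, where all genes gave 5.23% and 5.39%. At an unadjusted p under 0.05, 1 was lower, and the median difference was 0.14. The 9 included Taf1d (0.56), Ncl (0.46) and Polr1a (0.40). Polr1b is one of the 9 and was chosen on this contrast. Against control 13 were higher and 0 lower by limma, where all genes gave 4.16% and 3.12%. At an unadjusted p under 0.05, 1 was lower, and the median difference was 0.23. The 13 included Ftsj3 (0.65), Nip7 (0.57) and Pes1 (0.38). These counts rest on few arrays. Against the leading edge the 9 became 4 without the second leading edge array, 5 without the first hub array and 4 without the third. Against control the 13 became 5, 2 and 1 without the first, the second or the third hub array, 8 without the third leading edge array and 5 without the first control array. Wdr46 is not in the list, which was drawn up with earlier results of these data known.

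**Figure D2:**
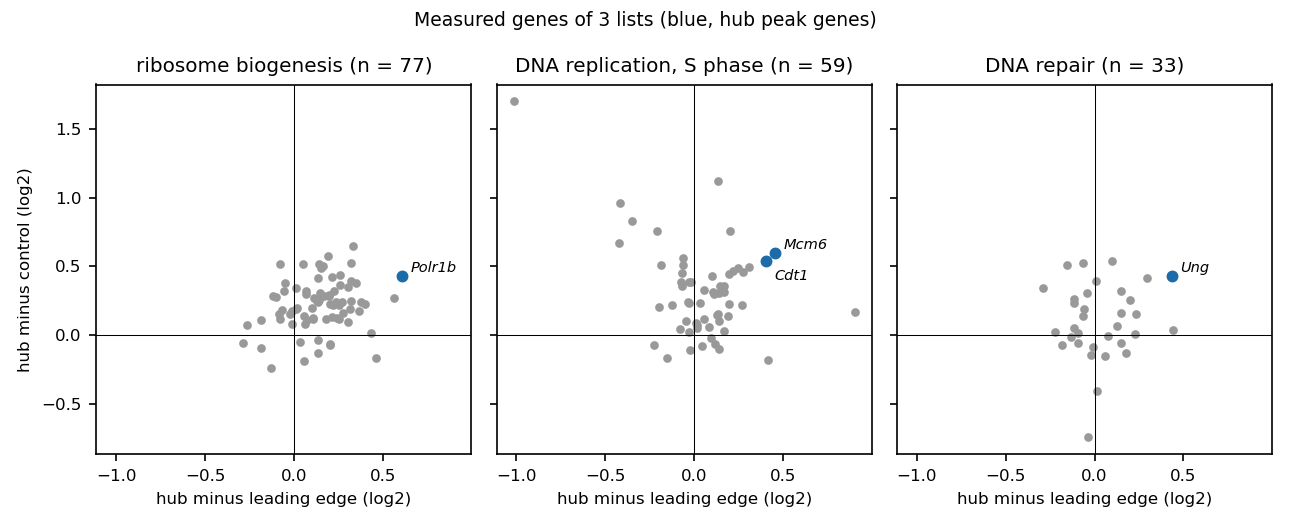
Hub minus leading edge (x axis, log2) against hub minus control (y axis, log2) for the measured genes of the ribosome biogenesis (77), DNA replication and S phase (59) and DNA repair (33) lists, 1 point per gene with hub peak genes in blue and named. Ribosome genes lie mostly to the upper right of the zero lines, S phase genes mostly above the horizontal line and on both sides of the vertical one.

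The gene with the widest lead was Y-linked, and 3 of the 7 Y-linked genes measured were members. Uty, a relative of a histone demethylase, read 6.94, 6.98 and 7.39 in the hub, against 6.15, 6.16 and 6.19 at the leading edge and 6.02, 6.45 and 6.05 in control. Every hub array was at least 0.49 above the rest, although its hub mean did not pass the 95th percentile of the array's background probe sets, which was 7.40. Eif2s3y, a Y-linked subunit of a translation initiation factor, read 9.26, 9.26 and 9.22 on the hub arrays, 8.78, 8.81 and 8.72 on those of the leading edge and 8.58, 8.54 and 8.90 on those of control. The 3 hub arrays were within 0.04 of each other and none of the other 6 reached them. Kdm5d, a Y-linked histone demethylase, read 7.76, 7.95 and 7.59 in the hub, against 6.57, 7.49 and 7.22 at the leading edge and 7.58, 7.13 and 7.11 in control. The third hub array was almost level with the first control array. The other 4 (Usp9y, Zfy1, Zfy2 and Sry) had no lead of that size: Usp9y, for example, ranged from 6.50 to 6.70 over all 9 arrays.

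Xist, the X-linked RNA made by the inactive X chromosome of females, was not a member and was looked up after the Y-linked genes were seen. It read 9.65, 10.12 and 9.92 on the hub arrays, 10.50, 10.40 and 10.34 on those of the leading edge and 11.60, 11.61 and 11.59 on those of control. The regions did not overlap, with the hub lowest and control highest. Xist was lower in the hub than at the leading edge by -0.52 ± 0.11 log2 units (SE, adjusted p = 0.0151 by limma), lower than control in the hub by -1.71 ± 0.11 (adjusted p = 4.65e-05) and below control at the leading edge by -1.19 ± 0.11 (adjusted p = 5.05e-05). Its hub against leading edge call was lost without the first leading edge array (adjusted p = 0.0562) and without the second (adjusted p = 0.0503). The share of male and female animals in each sample is not given, so region and sex makeup cannot be told apart for Uty, Eif2s3y and Kdm5d. The same holds for every other member, X-linked L1cam included. Without the Y-linked genes the set holds 38.

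**Figure D3:**
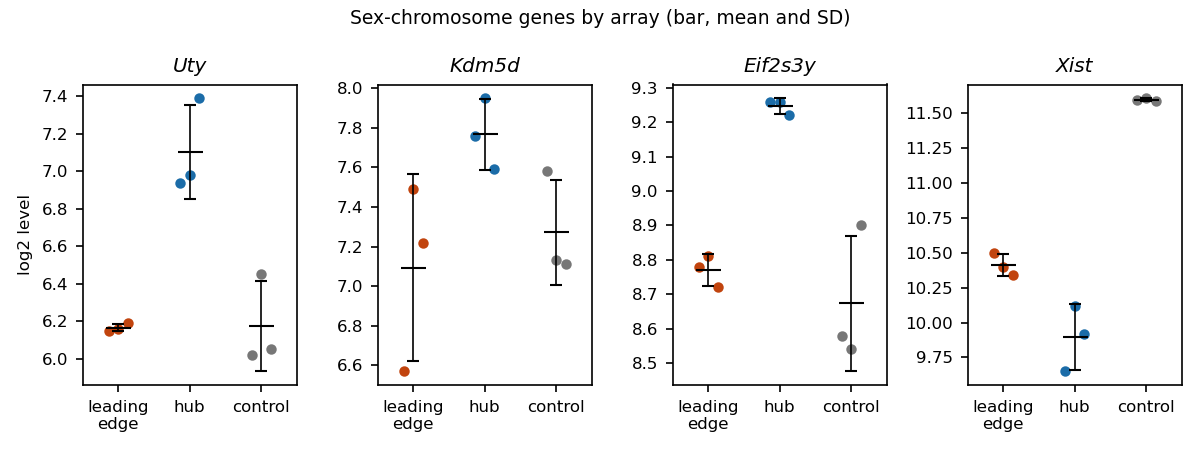
Log2 level on each of the 9 arrays (points) with the mean and SD of each region (black bars, n = 3) for Uty, Kdm5d, Eif2s3y and Xist, each panel with its own y axis. The Y-linked genes are highest in the hub, while Xist is lowest in the hub and highest in control, at 11.59 to 11.61.

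Adhesion, cytoskeleton and growth control gave 6 members. Dsc1 encodes desmocollin 1, a desmosomal cadherin of the upper epidermal layers. It read 8.49, 9.14 and 8.69 in the hub, against 6.90, 7.85 and 7.23 at the leading edge and 8.07, 7.94 and 7.89 in control. The hub was above control and control above the leading edge on every array, and the hub exceeded the leading edge by 1.45 ± 0.23 (SE), the widest such difference of any member. A further Dsc1 probe set met the rule by itself, at 6.95 to 7.53 in the hub, 5.21 to 5.72 at the leading edge and 6.51 to 6.77 in control. Other genes of upper layer differentiation were divided: of 51 measured, Dsc1 included, 13 had their highest mean in the hub (25.5%, near the 29.6% of all genes). In the hub 10 were higher and 6 lower than at the leading edge (all genes 5.23% and 5.39%), and 4 higher and 1 lower than in control (all genes 4.16% and 3.12%). The mean over that list was 7.87 to 7.99 on hub arrays, 7.81 to 8.13 at the leading edge and 7.83 to 7.95 in control.

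Rassf10, a Ras association domain protein, read 8.47, 8.44 and 7.95 on the hub arrays, 7.06, 7.49 and 7.20 on those of the leading edge and 7.87, 7.71 and 7.70 on those of control. Its order was that of Dsc1, hub over control over leading edge with no overlap. L1cam, an adhesion molecule best known from axons, read 8.38, 8.64 and 8.56 in the hub, against 7.86, 8.19 and 7.95 at the leading edge and 7.81, 7.61 and 8.04 in control. Its hub arrays were 0.19 above the next, and a further probe set of the gene gave 7.91 to 7.96 in the hub against at most 7.76. Cdhr1, a cadherin-related protein of photoreceptors, read 9.17, 9.22 and 9.03 on the hub arrays, 8.58, 8.58 and 8.85 on those of the leading edge and 7.53, 7.80 and 6.83 on those of control. Both wound regions stood above control on every array. Ly6g6e, a small surface protein of the Ly6 family, was tight in the hub (8.12 to 8.19) and broad elsewhere (7.28 to 8.02). Ablim1, an actin-binding protein, reached 9.53 to 9.82 in the hub and at most 9.46 elsewhere. The list of adhesion molecules and junctions, which holds Dsc1 and L1cam, had 9 of 48 genes with the highest mean in the hub (18.8%, against 29.6% of all genes).

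In all, 4 members are secreted or surface proteins of defence and proteolysis. Lcn2, a lipocalin that withholds iron from bacteria, read 10.21, 10.05 and 9.54 in the hub, against 9.50, 9.52 and 9.01 at the leading edge and 9.05, 8.54 and 9.31 in control. For Lcn2 the third hub array was only 0.02 above the second leading edge array. Ccl8, a chemokine that draws leukocytes, read 7.76, 6.66 and 6.69 on the hub arrays, 6.51, 6.33 and 6.50 on those of the leading edge and 6.23, 6.14 and 6.45 on those of control. The first hub array stood about 1 log2 unit above all others, and without it Ccl8 no longer met the rule. Rnase2b, a ribonuclease of the eosinophil-associated family, read 6.56, 7.03 and 7.27 in the hub, against 6.15, 6.50 and 6.40 at the leading edge and 4.95, 5.37 and 4.95 in control. All 3 regions were apart, with control near the median background probe set (4.66). Dpp4, a surface peptidase that trims chemokines, ranged from 7.46 to 7.76 in the hub and reached 7.43 in control.

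No member was in any of the 14 cell type marker lists. Markers of the scales and interscales, the alternating territories of tail epidermis, were pooled in a list that cannot tell these territories apart. Their list mean was 7.78 to 8.25 on hub arrays, 7.40 to 7.79 at the leading edge and 8.14 to 8.45 in control, with 9 of 15 above the background percentile. Of the 15, 7 were higher in the hub than at the leading edge and 0 lower by limma (median 0.44). For all genes the shares were 5.23% and 5.39%, and at an unadjusted p under 0.05 still 0 of the 15 were lower. Compared with control 0 were higher and 1 lower (median -0.16), where all genes gave 4.16% and 3.12%. At an unadjusted p under 0.05, 1 was higher. At the leading edge 7 were lower than in control and 0 higher (0 also at an unadjusted p under 0.05). For all genes those shares were 10.8% and 11.9%. The part of these markers in the differences of the members was not tested. In none of the other 13 lists were more than 3 genes called in either direction in a hub comparison. Myeloid markers averaged 5.60 to 5.67 on hub arrays, 5.66 to 6.34 at the leading edge and 5.58 to 5.60 in control, and 0 of the 17 had a mean above the background percentile. The list means of fibroblast markers were 7.18 to 7.29 in the hub, 7.12 to 7.42 at the leading edge and 7.24 to 7.39 in control, with 5 of 13 above that level. Of the defence list 14 of 42 genes had their highest mean in the hub (33.3%), and of the chemokines and cytokines 8 of 57 (14.0%), against 29.6% of all genes. Lcn2 and Ccl8 were the only genes of the 2 lists in which every hub array was above all others, as it was in 2.33% of all genes.

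Enzymes and carriers of lipid, redox and collagen chemistry gave 6 members. P4ha3, a catalytic subunit of the prolyl hydroxylase that matures collagen, read 8.66, 8.54 and 8.77 on the hub arrays, 8.07, 7.92 and 7.94 on those of the leading edge and 6.55, 7.22 and 7.03 on those of control. The regions were apart on every array, in the order hub, leading edge, control. Mgst2, a microsomal glutathione transferase, read 9.64, 9.89 and 9.98 in the hub, against 9.55, 9.47 and 9.27 at the leading edge and 8.98, 8.37 and 8.67 in control. It kept the same order, with the first hub array 0.09 above the first leading edge array. Fads2b, a fatty acid desaturase, read 8.25, 8.64 and 8.50 on the hub arrays, 7.73, 8.14 and 7.74 on those of the leading edge and 7.95, 7.16 and 7.44 on those of control. Its leading edge and control arrays overlapped. Slc27a3, which activates and takes up fatty acids, read 9.31, 9.23 and 9.46 in the hub, against 8.45, 8.45 and 8.44 at the leading edge and 8.95, 8.36 and 8.96 in control. The leading edge arrays lay within 0.01 of each other, and the second control array was the low one of its region. Adh6a, an alcohol dehydrogenase, ranged from 6.68 to 7.12 in the hub and Acbd6, which binds acyl-CoA, from 9.90 to 10.05, against at most 6.56 and 9.80 elsewhere. A further Acbd6 probe set overlapped, at 9.17 to 9.25 in the hub, 9.06 to 9.30 at the leading edge and 8.80 to 9.29 in control. Sebaceous gland markers averaged 7.49 to 8.01 in the hub, 7.86 to 8.31 at the leading edge and 7.30 to 8.37 in control.

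Transcription factors gave 2 members. Hoxa10, a homeobox factor of posterior body identity, had the second widest lead and read 7.89, 7.81 and 7.34 on the hub arrays, 6.86, 6.63 and 6.98 on those of the leading edge and 6.57, 7.03 and 6.95 on those of control. The third hub array was lower than its partners but still 0.30 above all others. Nr6a1, an orphan nuclear receptor, ranged from 8.35 to 8.46 in the hub and reached 8.26 in control. Its 4 other probe sets did not peak in the hub, so its membership rests on 1 probe set of 5.

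The remaining members serve mitochondria, transport or unknown tasks. Slc25a18, a glutamate carrier of the mitochondrial inner membrane, ranged from 6.14 to 6.30 in the hub and reached 5.86 in control, and Pdp2, which dephosphorylates pyruvate dehydrogenase, from 7.20 to 7.58 with at most 7.01 elsewhere. Coa6, an assembly factor of cytochrome oxidase, Noa1, a mitochondrial GTPase, and Triap1, a small protein of the intermembrane space, had hub means of 7.13, 7.62 and 9.17. Noa1 had an uneven hub, with 7.45, 7.30 and 8.11. Slc39a9, a zinc transporter, read 7.91, 8.06 and 8.01 in the hub and at most 7.62 elsewhere. A further Slc39a9 probe set had its highest mean in the hub with overlapping arrays, and another had its lowest mean there. Mri1 of the methionine salvage pathway read at least 8.56 in the hub and at most 8.43 elsewhere. Tmem69, 2700038G22Rik and Gm46390, of which little is known, had leads of 0.50, 0.49 and 0.40. The list of mitochondrial chaperones, import and translation holds none of these genes; 20 of its 32 measured genes had their highest mean in the hub (62.5%), against 29.6% of all genes, with 2 higher than at the leading edge (all genes 5.23%) and 5 higher than in control (all genes 4.16%).

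**Figure D4:**
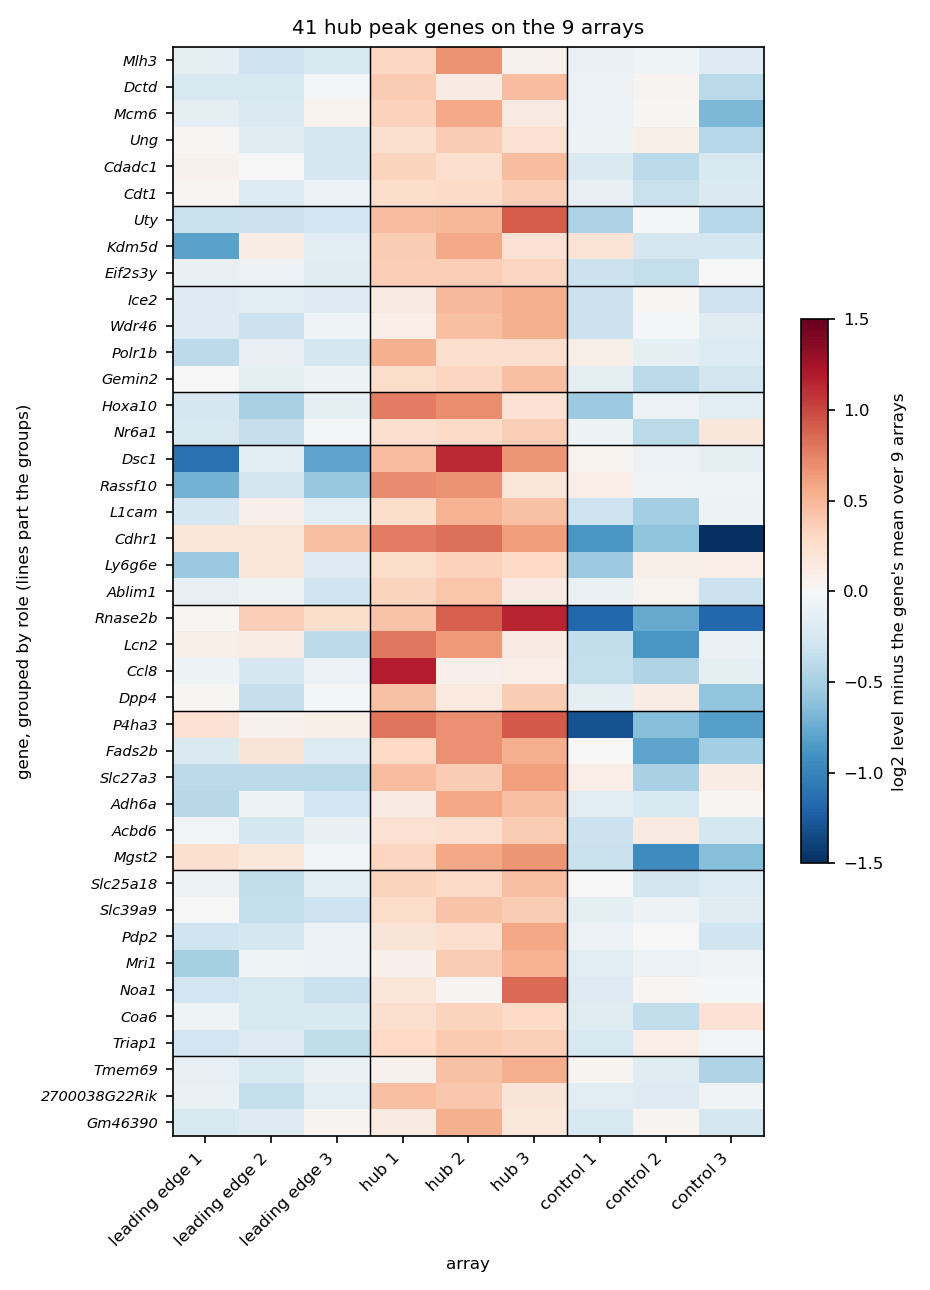
Log2 level of the 41 hub peak genes (rows, grouped by role) on the 9 arrays (columns), as the difference from each gene's mean over the arrays. Rows are red in the 3 hub columns, as the rule demands; control columns of Cdhr1, Rnase2b and P4ha3 are the deepest blue, and for Dsc1 and Rassf10 it is the leading edge columns.

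The rule set no direct condition on leading edge against control, and members were compared there by limma. It did use the same leading edge and control arrays, and it left out genes whose hub level lies between the other regions. Members with similar levels in those regions are therefore favoured, and counts over the members describe the chosen set. The question was whether genes that peak in the hub also changed at the wound edge. Cdhr1, Rnase2b, P4ha3 and Mgst2 exceeded control at the leading edge, and Rassf10 lay below it. The differences were 1.28 ± 0.21 for Cdhr1 (log2, SE, n = 3 against 3, adjusted p = 0.00161 by limma across all genes), 1.26 ± 0.19 for Rnase2b (adjusted p = 0.000964), whose means in both regions (6.35 and 5.09) lay below the background percentile of 7.40,, 1.04 ± 0.15 for P4ha3 (adjusted p = 0.00085) and 0.76 ± 0.15 for Mgst2 (adjusted p = 0.00609). With dim genes left out Rnase2b was not tested and 3 members were called higher. All 3 leading edge arrays exceeded all 3 control arrays in each of these genes. Rassf10 was lower by -0.51 ± 0.15 (adjusted p = 0.0388), again without overlap. The call for Rassf10 was lost when any of 5 arrays was left out, namely the first or the third leading edge array (adjusted p = 0.127 and 0.112) or the first, the second or the third control array (adjusted p = 0.108, 0.069 and 0.0646). It was also lost with array weights (adjusted p = 0.114) and when its probe sets were averaged (adjusted p = 0.0682). Dsc1 had the most negative difference, -0.64 ± 0.23, and did not pass (adjusted p = 0.0794). It passed when the second leading edge array was left out (-0.90, adjusted p = 0.0106) and when the levels of both Dsc1 probe sets were averaged (-0.87, adjusted p = 0.00453).

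The other 36 members were not called, Dsc1 among them. With 4 higher (9.76%) and 1 lower (2.44%), the members were called no more often than all genes, of which 11.9% were higher and 10.8% lower. The rule shapes these shares, so they do not test whether hub peak genes change less at the edge than other genes. The median difference over the 41 was -0.02 against 0.02 over all genes, 32 members lay within 0.25 of zero, and 18 had the higher mean at the leading edge and 23 in control. The member arrays scattered more than most genes: the median SD within regions was 0.19 for members and 0.12 for all genes. In simulated data with 200 of 17097 genes changed, 52.5% of changes of 0.5 and 91.3% of changes of 1 were recovered. Far fewer genes changed there than were called here, and the spread was that of all genes. These rates therefore do not measure the power for the members, and a member not called may still differ. Among the replication genes the differences were 0.14 ± 0.08 for Cdt1 (adjusted p = 0.295), 0.15 ± 0.18 for Mcm6 (adjusted p = 0.633) and -0.01 ± 0.13 for Ung (adjusted p = 0.982). Polr1b gave -0.18 ± 0.11 (adjusted p = 0.319), Lcn2 0.38 ± 0.23 (adjusted p = 0.308) and Hoxa10 -0.03 ± 0.17 (adjusted p = 0.942).

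**Figure D5:**
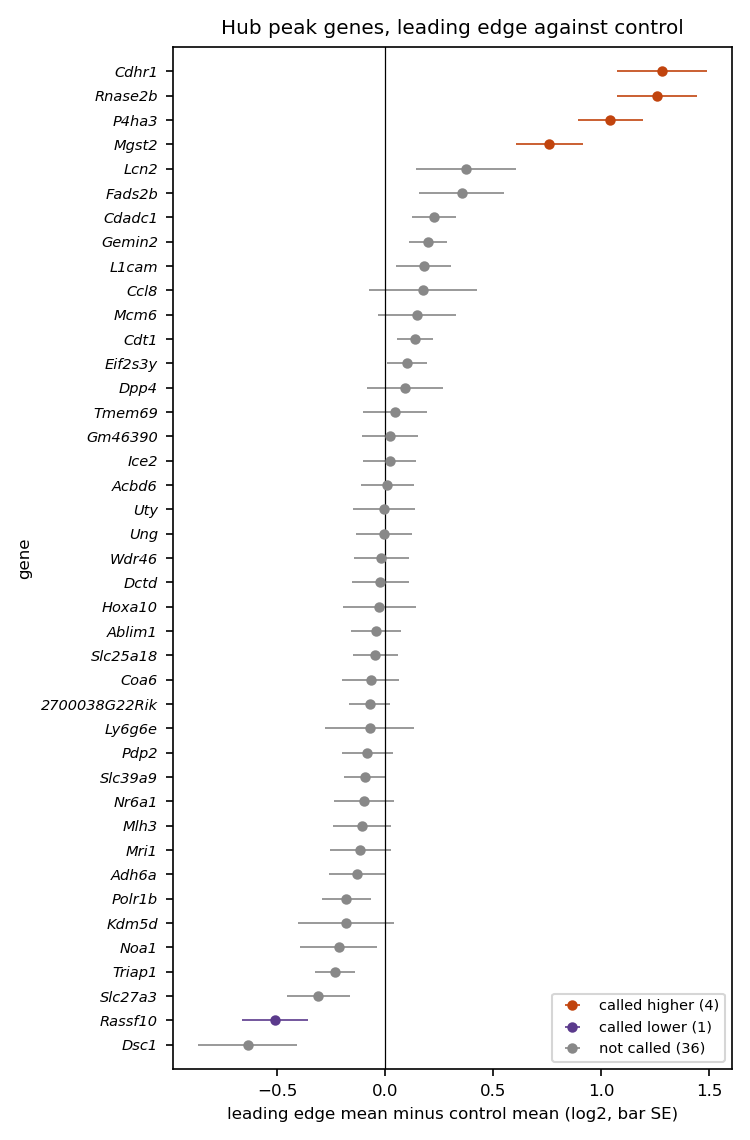
Leading edge mean minus control mean (x axis, log2; bars are the SE of the limma fit) for each of the 41 hub peak genes (y axis), in colour where the adjusted p was under 0.05. Cdhr1, Rnase2b, P4ha3 and Mgst2 lie to the right between 0.76 and 1.28, Rassf10 and the uncalled Dsc1 to the left, and most others straddle zero.

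Other probe sets of the same genes give a look at values the rule did not use, although on the same arrays. There were 30 such probe sets for 18 of the members, and the remaining 23 members have a single probe set. In 21 of the 30 the hub mean was highest (70.0%), compared with 27.0% of the 11801 other probe sets of all genes. The lead was smaller, with a median of 0.05 and a range of -0.44 to 0.67. In 5 of the 30 every hub array was above every other array. That share was 2.33% among the brightest probe sets of all genes and was not counted over all other probe sets. Those 5 belong to Dsc1, Kdm5d, L1cam, Cdt1 and Wdr46, and those of Dsc1 and Kdm5d also had a lead of 0.4. Both averaged under the background percentile of 7.40, at 6.46 for Dsc1 and 5.16 for Kdm5d over all arrays. Kdm5d and Cdt1 each had another probe set in which hub arrays overlapped the others, with leads of 0.03 and 0.04. The further Eif2s3y probe set overlapped too, with a lead of 0.16. Of the 30, 7 had a mean above the background percentile. Uty's further probe set stayed between 4.24 and 4.50 on all arrays, at the level of background.

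Levels near background concern a part of the set. Hub means ran from 6.21 to 10.30, and in 11 of the 41 genes the hub mean did not pass the 95th percentile of 23 background probe sets (7.40). Uty, Rnase2b, Ccl8, Ice2, Adh6a, Slc25a18, Tmem69, Pdp2, Mlh3, Coa6 and Gm46390 are these genes. The hub arrays contributed unequally: 18 members were highest on the third hub array, 16 on the second and 7 on the first. When each array was left out in turn, 19 members met the rule all 9 times, among them Uty, Eif2s3y, Kdm5d, Hoxa10, Dsc1, P4ha3, Rnase2b, Lcn2, Cdhr1, L1cam, Rassf10 and Wdr46. Cdt1 and Polr1b met it 7 times, Mcm6 and Ung 6 times, and Gm46390 least often, 4 times.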

How the data were processed

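Biotin-labelled cDNA amplified from 300 sorted basal cells per sample was hybridised by the authors to Affymetrix mouse genome strip arrays. The deposited values are log2 levels normalized by the authors with RMA (version: not given in the sources used here). No further normalization was applied. Of 45141 probe sets, 104 are controls, 28898 have 1 gene symbol in the platform annotation, 551 have several and 15588 have none. RefSeq holds the symbol of 28689 of the former. Each gene was represented by its brightest probe set (mean of the 9 arrays), giving 17097 genes.

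The members were selected on the hub differences, so hub comparisons of single members are described without a test. Leading edge against control, and gene lists in all comparisons, were tested with limma 3.58.1 (R 4.3.3; lmFit and eBayes on 3 groups, all 9 arrays, Benjamini-Hochberg adjustment over all genes, threshold 0.05). Python 3.11.15, pandas 2.3.3 and numpy 2.4.6 were used for the rest. The members, the gene lists and the tests were chosen with earlier results of these data known. All members are named, with values on each array for the 12 with the widest lead, those in a list and those called. Other values were added where a result turned on them, and Xist was added after its values were seen.

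Replicates are biological by the labels and technical by the methods. The p-values therefore cover no more than the spread between these samples, and that spread may be technical. The number of arrays, 3 a region, limits the precision. Replicate numbers did not pair samples: deviations of same-numbered arrays correlated at -0.178 to 0.082. The test was tried on simulated data made from these arrays for leading edge against control, over 17097 genes with 200 changed: 52.5%, 91.3% and 99.4% of changes of 0.5, 1 and 2 log2 units were recovered, with 5.4% false among the calls. Background was the 95th percentile of 23 nonspecific probe sets. Alternatives covered the choice of probe set, the lead, scaling, dim genes, the fit and each array left out.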

Additional observations from a re-analysis of the deposited data

How the results depend on the processing

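The size of the set depended on the rule. A lead of 0.3 gave 86 genes, 0.5 gave 16 and 1 gave 0, dropping the demand that arrays not overlap gave 67, and the methods' rule of over 2-fold gave 0, both in each same-numbered pair and in every pair of arrays. Leaving out 1 array gave 37 to 77 genes, the 77 without the first hub array, with 30 to 39 of the 41 kept. The mean of all probe sets gave 31 genes (27 shared), repeated quantile normalization 31 (30 shared), median centring 30 (29 shared) and the filter on dim genes 30. Chosen after seeing the data, probe sets without a suffix gave 34 genes (32 shared) and the set without Y-linked genes 38.

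For leading edge against control, members called lower numbered 2 with a replicate block (Dsc1 joined, adjusted p = 0.0404), 0 with array weights and 0 to 2 with an array left out, and members called higher 4 to 5, or 3 without dim genes, which removes Rnase2b. With the block, ribosome biogenesis genes higher in the hub than in control fell to 6, and no other count named here moved by over 1.5 times. That count was 8 after median centring, 3 with only the 6 arrays compared and 1 to 10 with an array left out. Ribosome genes higher in the hub than at the leading edge numbered 16 with array weights and 4 to 10 with an array left out, and those lower 0 to 1. S phase genes lower at the leading edge than in control numbered 2 with a mean-variance trend, 2 with array weights, 3 with repeated quantile normalization, 3 with median centring, 3 without dim genes and 0 to 2 with an array left out, and those higher 10 to 17. S phase genes higher in the hub than at the leading edge numbered 1 with the mean of all probe sets and 1 to 3 with an array left out, those lower 1 to 2, and those higher in the hub than in control 6 to 16. Over all genes, 407 were higher in the hub than in control with only the 6 arrays compared, and leaving out an array gave 373 to 641 higher and 326 to 512 lower. Against the leading edge it gave 563 to 974 higher in the hub, the fewest without the third leading edge array. Cdadc1, uncalled at 0.23 for leading edge against control, turned to -0.0822 with the mean of all probe sets. The causes of these shifts were not tested, and with 3 arrays a region small differences stay below detection.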
